A study of Arabidopsis thaliana with 12 samples.

Results

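The genes described here are 10 loci of the morning arm of the Arabidopsis thaliana circadian clock, named by locus identifier. They were chosen with earlier results of these data known. They are CCA1 (AT2G46830), LHY (AT1G01060), RVE1 (AT5G17300), RVE2 (AT5G37260), RVE7 (AT1G18330), RVE3, also called ASG4 (AT1G01520), RVE4 (AT5G02840), RVE6 (AT5G52660), RVE8 (AT3G09600) and LNK1 (AT5G64170). All 10 were among the 21543 loci of the count table and among the 20741 that passed the filter on low counts. RNA came from seedlings after 2 weeks of growth under 16 h of light and 8 h of darkness, in 4 groups of 3 libraries. The groups were med8 with 25 nM methyl viologen in the medium, med8 on control medium, Col-0 with 25 nM methyl viologen, and Col-0 on control medium. Methyl viologen, also known as paraquat, is a herbicide that makes illuminated chloroplasts produce reactive oxygen. Col-0 is the wild type, and med8 is a mutant for MED8, part of the Mediator coactivator through which DNA-bound factors reach RNA polymerase II. The labels named neither the med8 allele nor the hour of harvest. The levels of these genes follow the time of day. A difference in harvest hour between groups therefore cannot be told apart from a response to methyl viologen or a difference between genotypes. This holds for every comparison below.

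CCA1 and LHY are closely related MYB-like factors whose transcripts peak around dawn. They repress evening genes such as TOC1 through a promoter sequence called the evening element. The REVEILLE (RVE) proteins carry the same kind of single MYB-like domain. RVE8, RVE4 and RVE6 act in the opposite sense, as activators of evening-phased genes, and RVE3 belongs to their clade. RVE1 links the clock to auxin synthesis, RVE2 is also known as CIR1 and RVE7 as EPR1. LNK1 is a coactivator that binds RVE8 and its relatives.

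Gene models were those of RefSeq on assembly TAIR10.1, while the counts were made on TAIR10, so the positions are RefSeq's own. CCA1 lies on chromosome 2 (19245591 to 19248915, plus strand), 10.4 kb from the clock gene PRR9. RVE4 lies on chromosome 5 (648648 to 651979, plus strand), 6.6 kb from PRR7. LHY (33365 to 37871, minus strand) and RVE3 (190408 to 192436, plus strand) lie 152.5 kb apart on chromosome 1. RVE7 is also on chromosome 1 (6305814 to 6308243, minus strand), and RVE8 is on chromosome 3 (2946239 to 2949017, plus strand). RVE1 (5690225 to 5692992), RVE2 (14751344 to 14753088), RVE6 (21359001 to 21362273) and LNK1 (25672466 to 25676823) are on the minus strand of chromosome 5.

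Of the 75-base exonic stretches of RVE7, the length of a read here, 47.7% also occurred in transcripts of AT3G10110 or AT3G10113, so the count of RVE7 is uncertain. No such stretch of CCA1, LHY, RVE2, RVE3, RVE4, RVE6 or RVE8 occurred in another locus. LNK1 overlaps AT5G64160 on the other strand by 245 exonic bases (9.2%), RVE1 overlaps AT5G17305 on the other strand by 225 (11.2%), and RVE3 overlaps AT1G01510 on its own strand by 65 (4.1%). The strand setting of the counting is not given in the sources used here, so reads in these overlaps cannot be assigned with certainty.

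The 500 bases before each annotated start were searched on both strands for the G-box CACGTG, the evening element AAAATATCT and the CCA1-binding site AAAAATCT. A G-box, which is its own reverse complement, lay before 5 of the 10 genes (CCA1, LHY, RVE1, RVE2 and RVE3), and before 9.3% of all 27443 promoters. RVE7 held evening elements 317 and 50 bases before its start, and 4.4% of all promoters held at least 1. A CCA1-binding site lay before LHY, RVE2 and RVE6, and before 12.5% of all promoters. RVE4, RVE8 and LNK1 had none of these letters in the window. All 200 bases before RVE3, which hold its G-box, and 182 of the 200 before RVE4 overlap annotated exons of other loci. The 200 bases before the start follow for 5 genes, from RefSeq TAIR10.1 and 5′ to 3′ in the direction of the gene. Capitals mark the G-box in CCA1, LHY, RVE1 and RVE2 and the evening element in RVE7. A link between these motifs and the values below was not tested. A match describes the letters and not a bound site.
CCA1, chr2:19245391-19245590, plus strand: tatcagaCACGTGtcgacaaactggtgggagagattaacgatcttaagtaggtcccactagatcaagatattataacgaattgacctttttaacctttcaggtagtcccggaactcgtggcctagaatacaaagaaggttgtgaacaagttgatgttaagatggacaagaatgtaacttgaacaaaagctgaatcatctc
LHY, chr1:37872-38071, minus strand: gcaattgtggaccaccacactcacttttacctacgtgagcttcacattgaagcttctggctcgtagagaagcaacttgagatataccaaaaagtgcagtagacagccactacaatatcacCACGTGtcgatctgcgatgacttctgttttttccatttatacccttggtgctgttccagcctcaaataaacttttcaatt
RVE1, chr5:5692993-5693192, minus strand: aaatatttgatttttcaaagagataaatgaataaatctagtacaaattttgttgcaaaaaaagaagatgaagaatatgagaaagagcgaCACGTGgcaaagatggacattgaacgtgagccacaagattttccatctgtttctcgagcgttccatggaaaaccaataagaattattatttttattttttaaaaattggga
RVE2, chr5:14753089-14753288, minus strand: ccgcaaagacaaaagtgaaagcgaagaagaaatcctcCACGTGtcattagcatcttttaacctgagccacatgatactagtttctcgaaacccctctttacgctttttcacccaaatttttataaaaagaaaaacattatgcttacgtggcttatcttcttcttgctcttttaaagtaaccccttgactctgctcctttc
RVE7, chr1:6308244-6308443, minus strand: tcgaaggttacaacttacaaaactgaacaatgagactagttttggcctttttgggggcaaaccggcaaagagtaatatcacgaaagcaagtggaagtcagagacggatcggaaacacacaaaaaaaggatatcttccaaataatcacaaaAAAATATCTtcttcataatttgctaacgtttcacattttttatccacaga

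Total counts ran from 30472194 to 34694751 per library. MED8, read first as a check of the genotype, stood at 4.85 to 6.41 CPM (read counts scaled to a common library size) in the 6 med8 libraries and at 18.9 to 22.2 CPM in the 6 Col-0 libraries. Among replicates, med8 control replicate 3 and Col-0 control replicate 1 stood furthest from their groups. The 7 leaf markers, such as RBCS1A, summed to 18586, 15718 and 15138 CPM in med8 with methyl viologen and 24518, 26734 and 30547 CPM in med8 controls. In Col-0 they summed to 24485, 25290 and 23980 CPM with methyl viologen and 26824, 23288 and 23185 CPM in controls. Leaf markers were thus lowest in the treated mutant. The 17 root markers, such as CASP1, summed to 68, 69 and 63.8 CPM in med8 with methyl viologen and 152, 184 and 44 CPM in med8 controls. In Col-0 they summed to 55.2, 90.1 and 55.8 CPM with methyl viologen and 111, 129 and 150 CPM in controls. No marker was at 0 in any library. Root sums were lower with methyl viologen except against med8 control replicate 3, but single root markers went both ways, with 4 higher and 6 lower in med8 and 2 higher and 5 lower in Col-0. PLT1 (7.19-fold in med8, 3.09-fold in Col-0) and PLT2 (8.45-fold in med8, 2.85-fold in Col-0), genes of the root stem cell region, were among those that rose. The part of these markers in the results below was not tested. In bulk RNA, fewer cells of a type and less RNA per cell cannot be told apart.

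In Col-0, methyl viologen raised 7 of the 10 genes and lowered 1. Among all tested loci 28.8% changed, 15.4% upward and 13.4% downward. A gene is said to rise or fall where its Benjamini-Hochberg adjusted p in edgeR's quasi-likelihood test, taken over all tested loci, was under 0.05. RVE3 rose 13.1-fold, LHY 6.89-fold, CCA1 6.27-fold, RVE8 5.84-fold and RVE1 4.78-fold, while LNK1 (1.61-fold) and RVE4 (1.49-fold) rose less. The median log2 fold change was 1.47 for the 10 genes and 0.00 for all tested loci. The libraries of the media did not overlap for 8 of the 10 genes and for 44.2% of all tested loci.

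CCA1 had 117, 93.8 and 79.7 CPM in Col-0 with methyl viologen and 16.4, 13.1 and 16.9 CPM in Col-0 controls. Its partner LHY had 23.7, 18.6 and 16.9 CPM with methyl viologen and 2.96, 2.49 and 3.12 CPM in controls. Every treated library lay far above every control library for both genes. The log2 fold change was 2.65 ± 0.17, edgeR adjusted p = 1.77e-06 for CCA1, and 2.79 ± 0.18, edgeR adjusted p = 1.63e-06 for LHY (± SE).

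RVE1, which acts on auxin synthesis, had 25.1, 23.5 and 19.1 CPM in Col-0 with methyl viologen and 4.33, 3.97 and 5.84 CPM in controls, again far apart (2.26 ± 0.21, edgeR adjusted p = 1.72e-05). RVE2 moved the other way, with 5.77, 5.11 and 5.83 CPM with methyl viologen and 7.13, 7.59 and 7.7 CPM in controls. Its log2 fold change was −0.42 ± 0.11, edgeR adjusted p = 0.0119. RVE7 had 23.8, 22.6 and 20.9 CPM with methyl viologen and 25.5, 22.7 and 21.9 CPM in controls, overlapping groups that did not pass the test (−0.06 ± 0.09, edgeR adjusted p = 0.66).

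Among the activators RVE8, RVE4 and RVE6 and their relative RVE3, RVE8 had 21.8, 19.1 and 16.4 CPM in Col-0 with methyl viologen. In controls RVE8 had 3.55, 2.84 and 3.41 CPM. RVE3 had 6.1, 4.85 and 4.35 CPM with methyl viologen and 0.326, 0.355 and 0.473 CPM in controls, where it was also the lowest of the 10 genes per exon length. Both were far higher in every treated library, with log2 fold changes of 2.55 ± 0.16, edgeR adjusted p = 1.18e-06 for RVE8 and 3.71 ± 0.25, edgeR adjusted p = 1.63e-06 for RVE3. RVE4 had 86.5, 83.1 and 67.4 CPM with methyl viologen and 55.5, 50.0 and 53.6 CPM in controls. Its groups did not overlap, and its rise was smaller (0.57 ± 0.10, edgeR adjusted p = 0.00148). RVE6 had 11.9, 11.9 and 10.5 CPM with methyl viologen and 12.6, 11.5 and 11 CPM in controls, overlapping groups that did not pass the test (−0.04 ± 0.09, edgeR adjusted p = 0.787). The coactivator gene LNK1 had 106, 104 and 84.1 CPM with methyl viologen and 66.2, 59.2 and 57.4 CPM in controls, without overlap (0.69 ± 0.09, edgeR adjusted p = 0.000162).

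**Figure D1:**
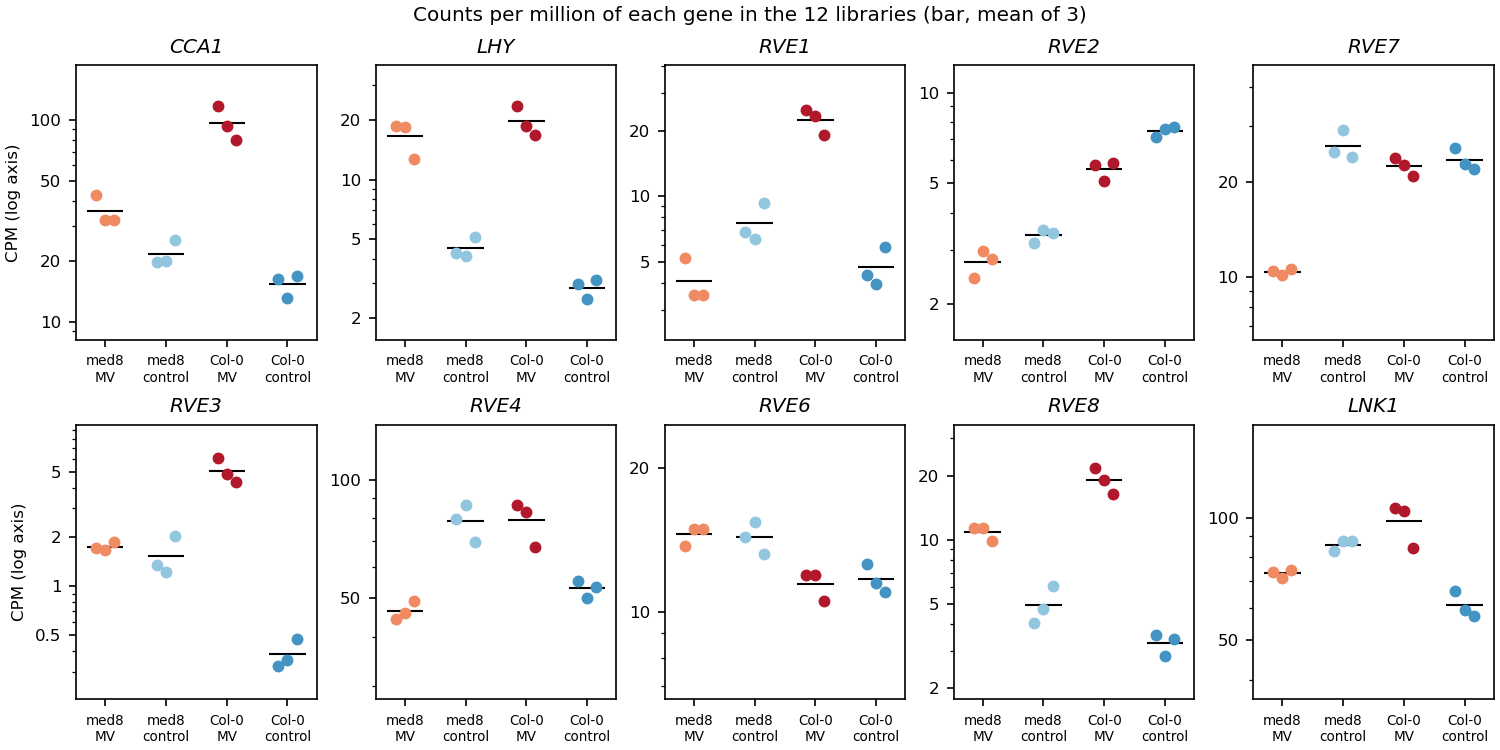
CPM on a log axis for each of the 10 genes in the 12 libraries, with 1 point per library, a bar at the mean of 3, and MV for methyl viologen. CCA1, LHY, RVE3 and RVE8 in Col-0 with methyl viologen lie far above Col-0 controls, RVE7 is low in med8 with methyl viologen, and RVE2 is lower in both med8 groups than in both Col-0 groups.

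In med8, methyl viologen raised 3 of the 10 genes (LHY, RVE8 and CCA1) and lowered 4 (RVE7, RVE1, RVE4 and LNK1). Among all tested loci 43.1% changed, 21.8% upward and 21.2% downward. The median log2 fold change was −0.11 for the 10 genes and 0.03 for all tested loci. LHY had 18.8, 18.4 and 12.8 CPM in med8 with methyl viologen and 4.27, 4.12 and 5.13 CPM in med8 controls (1.89 ± 0.18, edgeR adjusted p = 1.15e-05). CCA1 had 42.4, 32.1 and 31.9 CPM with methyl viologen and 19.9, 20.0 and 25.4 CPM in controls (0.70 ± 0.17, edgeR adjusted p = 0.00542). RVE8 had 11.4, 11.3 and 9.86 CPM with methyl viologen and 4.03, 4.73 and 6.02 CPM in controls (1.14 ± 0.15, edgeR adjusted p = 0.000134). For these 3 genes every treated library exceeded every control library, and LHY rose the most.

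RVE7 fell the most in med8, to 10.4, 10.1 and 10.6 CPM with methyl viologen, against 24.8, 29.2 and 24 CPM in med8 controls (−1.33 ± 0.09, edgeR adjusted p = 1.79e-06). AT3G10113, with which it may share reads, had 3.84, 3.66 and 4.41 CPM with methyl viologen and 9.64, 10.7 and 8.73 CPM in controls (−1.29 ± 0.12, edgeR adjusted p = 1.4e-05). The fold changes of these loci lay close together, and the counts cannot show which of them fell. RVE1 had 5.2, 3.52 and 3.5 CPM with methyl viologen and 6.85, 6.35 and 9.37 CPM in controls (−0.89 ± 0.21, edgeR adjusted p = 0.00522). RVE4 had 44.4, 46 and 49.2 CPM with methyl viologen and 79.8, 86.5 and 69.6 CPM in controls (−0.76 ± 0.10, edgeR adjusted p = 0.000133). RVE1 and RVE4 thus fell in med8, whereas they rose in Col-0.

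LNK1 had 73.4, 71.3 and 74.4 CPM in med8 with methyl viologen and 82.9, 87.5 and 87.5 CPM in controls. Its small fall (−0.23 ± 0.09, edgeR adjusted p = 0.0477) was lost in 12 of 20 alternative fits, with adjusted p from 0.0115 to 0.132. RVE2 had 2.43, 2.98 and 2.82 CPM with methyl viologen and 3.17, 3.51 and 3.42 CPM in controls and did not pass (−0.29 ± 0.12, edgeR adjusted p = 0.059). The groups of LNK1 and RVE2 did not overlap. RVE3, the gene with the largest rise in Col-0, had 1.7, 1.67 and 1.85 CPM with methyl viologen and 1.34, 1.22 and 2.03 CPM in controls (0.19 ± 0.22, edgeR adjusted p = 0.509). RVE6 had 13.7, 14.9 and 14.9 CPM with methyl viologen and 14.3, 15.4 and 13.2 CPM in controls (0.02 ± 0.09, edgeR adjusted p = 0.848). The groups of RVE3 and RVE6 overlapped. Groups did not overlap for 8 of the 10 genes and for 53.2% of all tested loci.

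The difference between the responses of med8 and Col-0 was tested as an interaction, which 8 of the 10 genes passed, all with the lower log2 response in med8. Among all tested loci 13.9% passed, 6.25% with the higher and 7.66% with the lower response in med8, a balance that upper-quartile scaling turned over. The median interaction was −1.30 for the 10 genes and 0.01 for all tested loci. RVE3 (−3.52 ± 0.33, edgeR adjusted p = 6.46e-05) and RVE1 (−3.14 ± 0.29, edgeR adjusted p = 6.46e-05) differed most, followed by CCA1 (−1.94 ± 0.24, edgeR adjusted p = 0.000335). RVE8 (−1.40 ± 0.22, edgeR adjusted p = 0.00151), RVE4 (−1.33 ± 0.14, edgeR adjusted p = 0.000141) and RVE7 (−1.27 ± 0.13, edgeR adjusted p = 8.04e-05) had similar values. LNK1 had −0.92 ± 0.12, edgeR adjusted p = 0.000589. LHY had −0.90 ± 0.25, edgeR adjusted p = 0.0342, and 8 of 19 alternative fits lost this call, with adjusted p from 0.00854 to 0.0885. Those were the fits without Col-0 control replicate 1, 2 or 3, Col-0 methyl viologen replicate 1, med8 control replicate 1 or 3, or med8 methyl viologen replicate 3, and without both libraries that stood apart. RVE2 (0.13 ± 0.16, edgeR adjusted p = 0.675) and RVE6 (0.06 ± 0.12, edgeR adjusted p = 0.814) did not pass. The interaction uses the same libraries as the other comparisons.

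**Figure D2:**
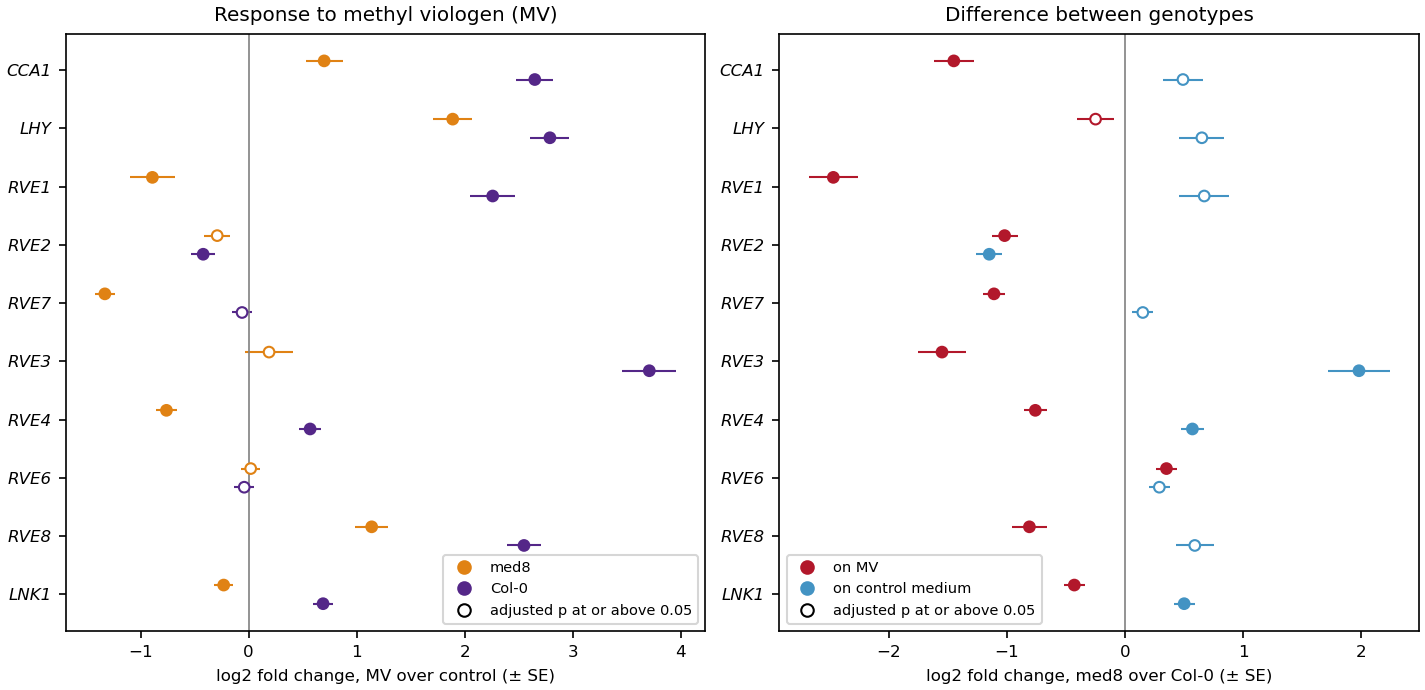
Log2 fold changes with SE for the 10 genes, for methyl viologen over control medium in med8 and Col-0 (left) and for med8 over Col-0 on methyl viologen and on control medium (right), with open points at an adjusted p of 0.05 or more. On the left RVE3 is at 0.19 ± 0.22 in med8 and 3.71 ± 0.25 in Col-0, and on the right 8 filled points lie below 0 on methyl viologen.

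On methyl viologen, 8 of the 10 genes were lower in med8 than in Col-0 and 1 was higher. Among all tested loci 23.7% differed, 10.8% with the higher and 12.9% with the lower value in med8, a balance that also turned over under upper-quartile scaling. The median log2 difference was −0.92 for the 10 genes and 0.01 for all tested loci. RVE1 was 5.55-fold lower (−2.47 ± 0.21, edgeR adjusted p = 1.25e-05), RVE3 2.92-fold (−1.55 ± 0.20, edgeR adjusted p = 0.000248) and CCA1 2.73-fold (−1.45 ± 0.17, edgeR adjusted p = 0.000104). RVE7 was 2.16-fold lower (edgeR adjusted p = 9.61e-06), RVE2 2.03-fold (edgeR adjusted p = 8.12e-05), RVE8 1.76-fold (edgeR adjusted p = 0.00195), RVE4 1.7-fold (edgeR adjusted p = 0.000299) and LNK1 1.34-fold (edgeR adjusted p = 0.0044). RVE6 was 1.27-fold higher in med8 (0.35 ± 0.09, edgeR adjusted p = 0.0126), a call lost without med8 methyl viologen replicate 2 (edgeR adjusted p = 0.0532, range over alternatives 0.00511 to 0.0532). LHY did not pass, and its groups overlapped (−0.25 ± 0.16, edgeR adjusted p = 0.307). The groups of the other 9 genes did not overlap, nor did those of 46.3% of all tested loci.

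On control medium, 3 of the 10 genes were higher in med8 than in Col-0 and 1 was lower. Among all tested loci 5.79% differed, 2.81% with the higher and 2.98% with the lower value in med8. The median log2 difference was 0.53 for the 10 genes and 0.00 for all tested loci. RVE3 was 3.93-fold higher (1.98 ± 0.26, edgeR adjusted p = 0.00303), with 10 to 15 counts in each Col-0 control library. RVE4 was 1.48-fold higher (0.57 ± 0.10, edgeR adjusted p = 0.00969) and LNK1 1.41-fold higher (0.50 ± 0.09, edgeR adjusted p = 0.00926). RVE2 was 2.22-fold lower (−1.15 ± 0.11, edgeR adjusted p = 0.0006), and it was the 1 gene of the 10 that was lower in med8 on both media. CCA1 (0.49 ± 0.17, edgeR adjusted p = 0.119), LHY (0.65 ± 0.19, edgeR adjusted p = 0.0698), RVE1 (0.67 ± 0.21, edgeR adjusted p = 0.0859), RVE8 (0.59 ± 0.16, edgeR adjusted p = 0.0593), RVE6 (0.29 ± 0.09, edgeR adjusted p = 0.0797) and RVE7 (0.15 ± 0.09, edgeR adjusted p = 0.339) did not pass. The groups did not overlap for 9 of the 10 genes, all but RVE7, and for 23.3% of all tested loci. DESeq2 called 7 of the 10 genes here (6 higher, 1 lower), and a fit of only the control libraries called RVE2 alone. RVE4 also lost its call without Col-0 control replicate 2 (edgeR adjusted p = 0.0507, range over alternatives 4.76e-05 to 0.0573) and LNK1 without Col-0 control replicate 3 (edgeR adjusted p = 0.0501, range 3.44e-05 to 0.0504).

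The log2 ratio of CCA1 to LHY, in CPM, was 1.18, 0.81 and 1.31 in med8 with methyl viologen and 2.22, 2.28 and 2.31 in med8 controls. In Col-0 it was 2.31, 2.33 and 2.24 with methyl viologen and 2.47, 2.39 and 2.43 in controls. Treated med8 thus lay below the other 9 libraries. The log2 ratio of CCA1 to its evening target TOC1 was −1.0, −1.54 and −1.58 in med8 with methyl viologen and −2.3, −2.32 and −1.95 in med8 controls. In Col-0 it was 0.69, 0.10 and −0.11 with methyl viologen and −3.02, −3.43 and −2.99 in controls. The 4 groups did not overlap in this ratio, and those of Col-0 were at its extremes. Both ratios were chosen after their values were seen and carry no test.

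**Figure D3:**
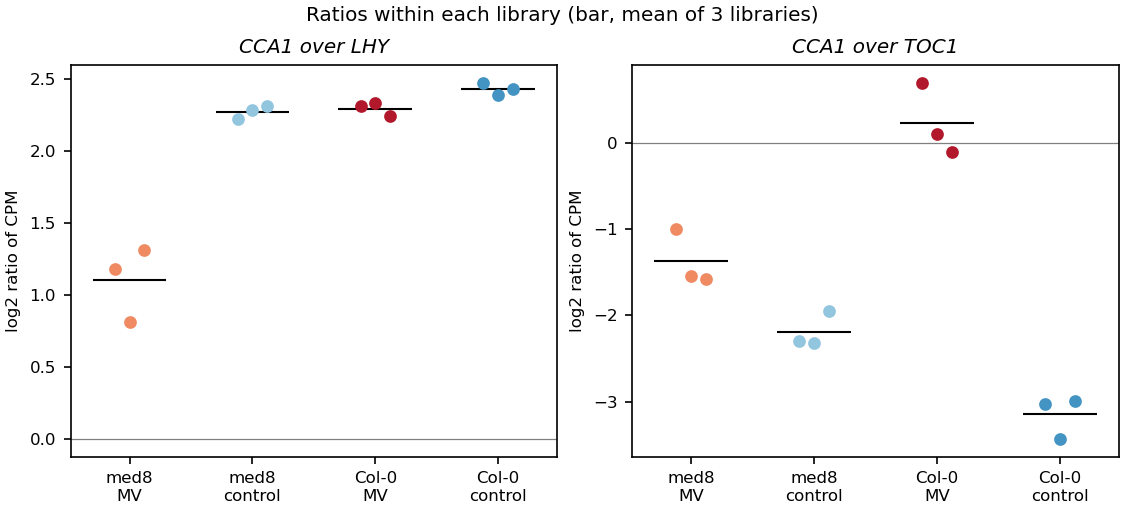
Log2 ratio of CPM of CCA1 over LHY (left) and of CCA1 over TOC1 (right) in each library, with a bar at the mean of 3 libraries and MV for methyl viologen. CCA1 over LHY is between 0.81 and 1.31 in med8 with methyl viologen and between 2.22 and 2.47 elsewhere.

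Levels of different genes were compared as CPM per kb of RefSeq exons (mean ± SD, n = 3), and neighbours in the order were taken to lie within their spread where their means differed by less than the sum of their SDs. In med8 with methyl viologen the order was LNK1 (27.4 ± 0.595 CPM per kb), RVE4 (22.1 ± 1.17), CCA1 (13 ± 2.22), RVE6 (8.78 ± 0.417), RVE7 (5.12 ± 0.118), LHY (4.87 ± 0.968), RVE8 (4.63 ± 0.371), RVE2 (2.8 ± 0.289), RVE1 (2.02 ± 0.484) and RVE3 (1.1 ± 0.0615). There, RVE7 lay within its spread of LHY, and LHY of RVE8. In med8 controls it was RVE4 (37.3 ± 4.05 CPM per kb), LNK1 (32.2 ± 0.984), RVE7 (12.8 ± 1.36), RVE6 (8.64 ± 0.668), CCA1 (8.0 ± 1.16), RVE1 (3.73 ± 0.803), RVE2 (3.43 ± 0.182), RVE8 (2.1 ± 0.431), LHY (1.32 ± 0.16) and RVE3 (0.963 ± 0.276). RVE6 and CCA1, RVE1 and RVE2, and LHY and RVE3 lay within their spread.

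In Col-0 with methyl viologen RVE4 (37.5 ± 4.84 CPM per kb), LNK1 (36.8 ± 4.61) and CCA1 (35.6 ± 6.97) led within their spread, followed by RVE1 (11.2 ± 1.55) and RVE7 (11.1 ± 0.717), which also lay within theirs. RVE8 (8.14 ± 1.16 CPM per kb) lay within its spread of RVE6 (6.89 ± 0.486), RVE6 of LHY (5.77 ± 1.03) and LHY of RVE2 (5.68 ± 0.411), while RVE3 (3.21 ± 0.565) stood apart below them. In Col-0 controls RVE4 (25.2 ± 1.34 CPM per kb) and LNK1 (22.9 ± 1.74) led within their spread, then came RVE7 (11.5 ± 0.94), then RVE2 (7.63 ± 0.31) and RVE6 (7.08 ± 0.477) within theirs. CCA1 (5.68 ± 0.767 CPM per kb), RVE1 (2.34 ± 0.491), RVE8 (1.39 ± 0.159), LHY (0.836 ± 0.0967) and RVE3 (0.242 ± 0.0492) closed that order, each apart from the next. CCA1 thus had rank 3 in both treated groups, against rank 5 in med8 controls and rank 6 in Col-0 controls.

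Among CCA1, LHY, RVE1, RVE2 and RVE7, CCA1 held 46.6% ± 3.09 of the summed CPM per kb in med8 with methyl viologen and 27.2% ± 2.79 in med8 controls (SD, n = 3). In Col-0 it held 51.1% ± 2.5 with methyl viologen and 20.2% ± 1.83 in controls. RVE7 held 18.6% ± 2.16 in med8 with methyl viologen and 43.9% ± 5.05 in med8 controls, and in Col-0 16.1% ± 1.3 with methyl viologen and 41.2% ± 3.1 in controls. LHY took 17.4% ± 2.55 in med8 with methyl viologen, against 8.3% ± 0.322 in Col-0 with methyl viologen. The uncertain count of RVE7 enters all shares of these genes. Among RVE3, RVE4, RVE6 and RVE8, RVE4 held the largest share in each of the 4 groups, from 60.3% ± 1.38 in med8 with methyl viologen to 76% ± 2.06 in med8 controls. RVE8 held 12.7% ± 1.38 in med8 with methyl viologen and 4.34% ± 1.21 in med8 controls, and in Col-0 14.6% ± 0.536 with methyl viologen and 4.1% ± 0.287 in controls. These are shares of the genes named and not of whole clades. The further RVE genes AT4G01280 (8.65 CPM per kb in Col-0 with methyl viologen) and AT3G10113 (7.31 there) were not in the sums.

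**Figure D4:**
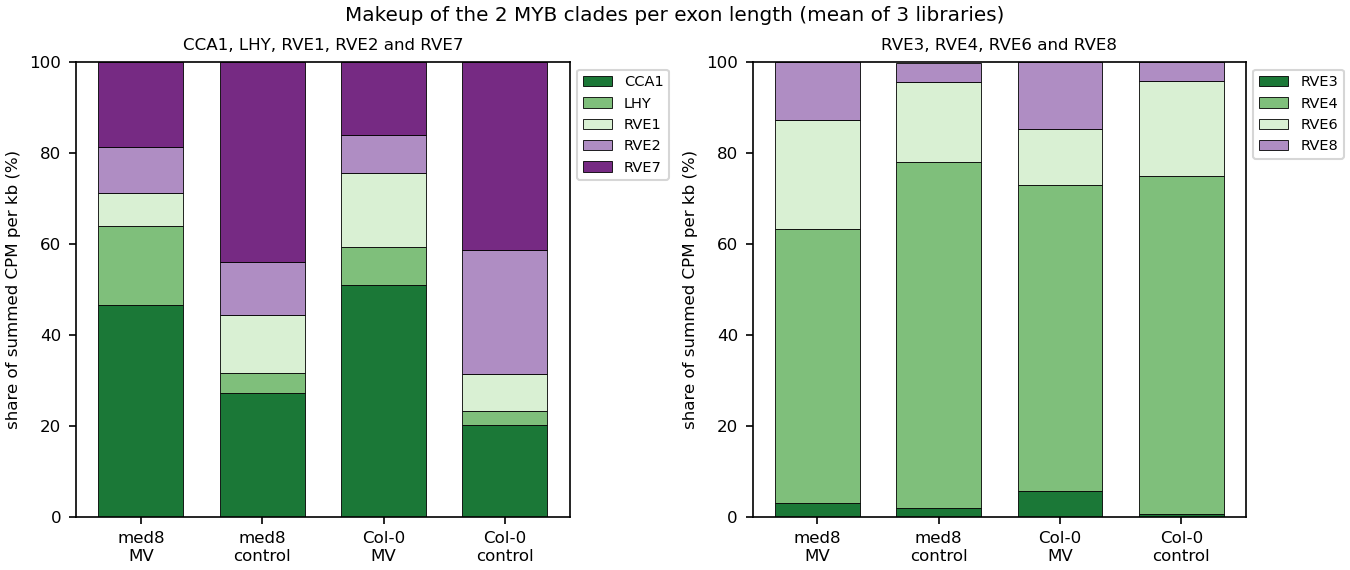
Share of each gene in the summed CPM per kb of the genes shown in its panel, as stacked bars of the mean of 3 libraries for each group. MV stands for methyl viologen, and further RVE genes such as AT4G01280 and AT3G10113 are not in the sums. CCA1 takes 46.6% and 51.1% of its panel on methyl viologen in med8 and Col-0, and RVE4 is the largest part of its panel in each group. The uncertain count of RVE7 enters all shares of the panel of CCA1.

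Genes that work with these factors were read from lists of clock genes. The counts of each list stand beside the share of all tested loci that changed. That share was 43.1% in med8 (21.8% upward, 21.2% downward) and 28.8% in Col-0 (15.4% upward, 13.4% downward). Of 5 further RVE and LNK genes, 1 rose and 3 fell in med8, and 4 rose in Col-0, with median log2 fold changes of −0.24 in med8 and 1.06 in Col-0. Those that fell in med8 include AT3G10113, which may share reads with RVE7, so its fall may not be separate from that of RVE7. LNK4 had 19.6, 17.5 and 18.7 CPM in med8 with methyl viologen and 22, 20.6 and 23.4 CPM in med8 controls (−0.24 ± 0.07, edgeR adjusted p = 0.0174). In Col-0 LNK4 had 35.1, 32.7 and 31.7 CPM with methyl viologen and 14.3, 13.4 and 14.4 CPM in controls (1.24 ± 0.07, edgeR adjusted p = 8.34e-07). LNK2, a coactivator like LNK1, also fell in med8 (−0.74 ± 0.12, edgeR adjusted p = 0.000592) and rose in Col-0 (1.06 ± 0.12, edgeR adjusted p = 8.86e-05). LNK3 did not pass in med8 (0.31 ± 0.15, edgeR adjusted p = 0.128) and rose in Col-0 (1.44 ± 0.16, edgeR adjusted p = 5.57e-05).

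The 5 PRR genes encode pseudo-response regulators, several of which repress CCA1 and LHY in turn through the day. In med8 2 of them fell, and in Col-0 1 rose and 4 fell, with medians of −0.28 in med8 and −0.73 in Col-0. PRR9, the earliest in the day, had 16.2, 16.3 and 15 CPM in med8 with methyl viologen and 12.7, 15.4 and 13.6 CPM in med8 controls (0.18 ± 0.12, edgeR adjusted p = 0.255). In Col-0 PRR9 had 23.1, 24.5 and 19.3 CPM with methyl viologen and 9.31, 7.04 and 7.07 CPM in controls, and was the PRR gene that rose (1.51 ± 0.13, edgeR adjusted p = 9.27e-06). PRR3 did not pass in med8 (−0.29 ± 0.12, edgeR adjusted p = 0.06) and fell in Col-0 (−1.33 ± 0.12, edgeR adjusted p = 1.32e-05). PRR5 fell in med8 (−0.28 ± 0.09, edgeR adjusted p = 0.0227) and in Col-0 (−0.85 ± 0.09, edgeR adjusted p = 3.62e-05), as did PRR7 (−0.84 ± 0.07, edgeR adjusted p = 6.37e-06 in med8, and −0.22 ± 0.07, edgeR adjusted p = 0.0348 in Col-0).

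Of 8 genes on a list of evening complex and evening genes, 1 rose and 1 fell in med8, and 6 fell in Col-0. Their medians were −0.05 in med8 and −0.66 in Col-0. ZTL and LKP2 passed in neither genotype, and whether each listed gene peaks in the evening was not tested. FKF1, which encodes a light-sensing F-box protein, had 68.8, 67.8 and 68.6 CPM in med8 with methyl viologen and 64, 65.5 and 58.2 CPM in med8 controls (0.13 ± 0.11, edgeR adjusted p = 0.376). In Col-0 FKF1 had 26.4, 35.3 and 38.9 CPM with methyl viologen and 75.7, 78.8 and 80.5 CPM in controls (−1.23 ± 0.11, edgeR adjusted p = 1.66e-05). GI (−0.74 ± 0.08, edgeR adjusted p = 3.5e-05), LUX, a DNA-binding part of the evening complex (−0.76 ± 0.08, edgeR adjusted p = 5.66e-05), and its relative BOA (−1.38 ± 0.16, edgeR adjusted p = 0.000102) also fell in Col-0. ELF4, another part of that complex, rose in med8 (0.24 ± 0.08, edgeR adjusted p = 0.0253) and fell in Col-0 (−0.58 ± 0.08, edgeR adjusted p = 0.000197). In the interaction, 6 of the 8 evening genes passed with the higher value in med8, the direction opposite to the 8 morning genes that passed.

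**Figure D5:**
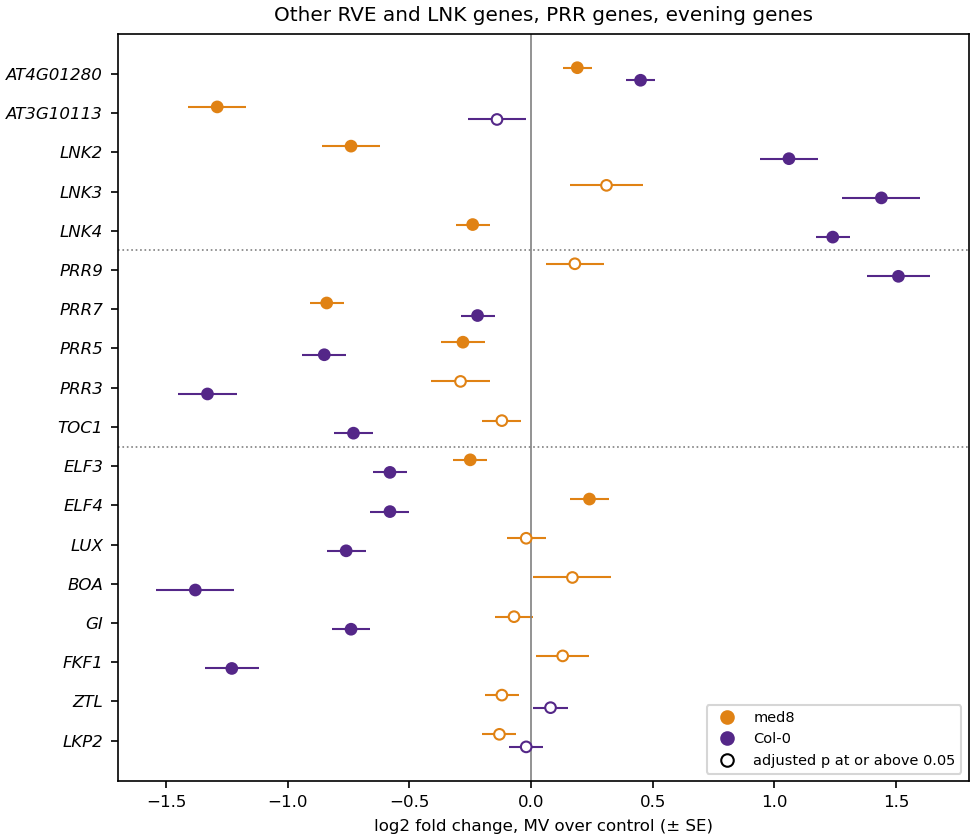
Log2 fold changes with SE for methyl viologen over control medium in med8 and Col-0, with open points at an adjusted p of 0.05 or more. From the top, 3 blocks hold further RVE and LNK genes, PRR genes and the list of evening complex and evening genes. In Col-0 LNK2, LNK3, LNK4 and PRR9 lie right of 0, and 6 of the 8 genes on the evening list are filled points left of 0.

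Of 10 genes for activators, repressors and a kinase of CCA1, 3 rose and 3 fell in med8, and 1 rose and 4 fell in Col-0, with medians of −0.07 in med8 and −0.06 in Col-0. Among all tested loci 43.1% changed in med8 and 28.8% in Col-0. CHE, a repressor of CCA1, fell in med8 (−0.41 ± 0.11, edgeR adjusted p = 0.0115) and in Col-0 (−0.96 ± 0.11, edgeR adjusted p = 9.48e-05). COR27, a repressor of clock genes, did not pass in med8 (0.13 ± 0.17, edgeR adjusted p = 0.579) and fell in Col-0 (−1.49 ± 0.17, edgeR adjusted p = 8.84e-05), as with AT4G33980 (−0.24 ± 0.20, edgeR adjusted p = 0.351 in med8, and −1.53 ± 0.20, edgeR adjusted p = 0.000219 in Col-0). JMJ30, which encodes a jumonji-domain demethylase, rose in med8 (0.45 ± 0.12, edgeR adjusted p = 0.0115) and fell in Col-0 (−0.87 ± 0.12, edgeR adjusted p = 0.000321).

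Of 13 clock outputs, 5 rose and 5 fell in med8, and 4 rose and 5 fell in Col-0, with medians of 0.18 in med8 and −0.29 in Col-0. The shares of all tested loci that changed were 43.1% in med8 and 28.8% in Col-0. GRP7, an evening-phased gene for an RNA-binding protein, had 1962, 1925 and 1900 CPM in med8 with methyl viologen and 1667, 1688 and 1752 CPM in med8 controls (0.18 ± 0.11, edgeR adjusted p = 0.205). In Col-0 GRP7 had 958, 1023 and 1332 CPM with methyl viologen and 2066, 2146 and 2172 CPM in controls (−0.95 ± 0.11, edgeR adjusted p = 8.53e-05). The cold-response factor gene CBF1 had 14.8, 16.1 and 21.7 CPM in med8 with methyl viologen and 1.72, 2.94 and 2.24 CPM in med8 controls (2.93 ± 0.23, edgeR adjusted p = 4.01e-06). In Col-0 CBF1 had 0.108, 0.232 and 0.199 CPM with methyl viologen and 1.17, 1.2 and 0.726 CPM in controls (−2.50 ± 0.38, edgeR adjusted p = 0.000533). Its treated values lay below those of RVE3 in Col-0 controls (0.326, 0.355 and 0.473 CPM), so the size of this fall rests on few counts. Its neighbours in the family, CBF2 (2.04 ± 0.17, edgeR adjusted p = 4.7e-06 in med8, and −0.64 ± 0.20, edgeR adjusted p = 0.0331 in Col-0) and CBF3 (1.07 ± 0.18, edgeR adjusted p = 0.000566 in med8, and −1.35 ± 0.20, edgeR adjusted p = 0.000481 in Col-0), went the same ways.

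Each gene's profile over the 12 libraries was set against the mean profile of CCA1 and LHY, both centred, as the root mean square difference of log2(CPM + 0.5). The mean profile itself had a root mean square of 1.03. RVE8 was nearest among the other 8 genes (0.13), followed by RVE3 (0.41), RVE1 (0.83), LNK1 (0.87), RVE4 (1.02), RVE6 (1.07), RVE2 (1.26) and RVE7 (1.31). Among 8498 further loci with a symbol and at least 1 CPM on average, the nearest were NDB3 (0.28), GBSS1 (0.29), NAS4 (0.29), SERAT3;2 (0.36), CHIL (0.37) and DI21 (0.38). RVE8 was thus nearer to the mean profile than any of these loci. CCA1 and LHY themselves each lay 0.25 from it, and loci without a symbol were not compared. GBSS1, the gene for granule-bound starch synthase, averaged 79.3 CPM in med8 with methyl viologen and 24 CPM in med8 controls, and in Col-0 112 CPM with methyl viologen and 14.4 CPM in controls. NAS4, a nicotianamine synthase gene, averaged 26.9 CPM in med8 with methyl viologen and 11.6 CPM in med8 controls, and in Col-0 71 CPM with methyl viologen and 8.34 CPM in controls. NDB3 averaged 0.0108 CPM in Col-0 controls, where the added 0.5 CPM sets its value. RVE3 averaged 0.385 CPM in Col-0 controls, also under the added 0.5 CPM. That narrows its change in the profile, so its place after RVE8 depends on the added value.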

How the data were processed

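The authors' deposited table held raw counts per locus. Per the submitters' processing notes, Trim Galore 0.3.3, TopHat2 2.1.0 and featureCounts of Subread 1.4.6 were used, with TAIR10. Libraries were stranded TruSeq mRNA libraries read as single 75-base ends, per the labels' protocols. Every locus of the table had at least 5 counts in at least 3 libraries.

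All 4 groups were fitted together in edgeR 4.0.16 (R 4.3.3) using TMM factors, filterByExpr (minimum count 10, minimum total 15, 802 loci removed) and a robust quasi-likelihood fit of group means. Adjustment was by Benjamini-Hochberg over 20741 loci at 0.05. The SE is the log2 fold change divided by the root of F. The common coefficient of biological variation was 12.7%, and those of the 10 genes ran from 7.8% (RVE6) to 17.1% (RVE1). Nothing says that replicates came from separate cultures, so the p-values cover the spread among these libraries, which may be technical.

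The genes and lists were chosen with earlier results of these data known. Named were all 10 genes, MED8, from each list those with the 3 smallest adjusted p in Col-0 and in the interaction, and the 6 nearest profiles. TOC1, PLT1, PLT2, ZTL, LKP2, AT4G01280 and the motif holders named under other observations were added after their values were seen. Of 21543 loci, 21519 matched RefSeq. The fit was tested on simulated data. Other settings tried were DESeq2 1.42.0, RLE or upper-quartile scaling, filters of none or of 1 CPM in 3 libraries, a block for replicate number, separate fits of each pair of groups, and dropping each library in turn or both that stood apart. Correlations of same-numbered replicates ran from −0.38 to 0.35, and in no comparison were all 3 over 0.1, so numbers were not taken as pairs.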

Additional observations from a re-analysis of the deposited data

Results flagged for a closer look

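The responses to methyl viologen differed between med8 and Col-0 for 8 of the 10 genes by edgeR's interaction test. Of all tested loci 13.9% passed that test, 7.66% with the lower response in med8. The differences, as the log2 response of med8 minus that of Col-0, were −1.94 for CCA1, −0.90 for LHY, −3.14 for RVE1, −1.27 for RVE7, −3.52 for RVE3, −1.33 for RVE4, −1.40 for RVE8 and −0.92 for LNK1. The count of RVE7 may include reads of AT3G10110 or AT3G10113, and the call of LHY was lost in 8 of 19 alternative fits.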

How the results depend on the processing

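Of 50 values (10 genes in 5 comparisons), 39 kept their side of the threshold under all alternatives run (20 per comparison, 19 for the interaction), and 11 changed a call in at least 1. No called value changed direction. Of the uncalled values, 4 near 0 did in at least 1 alternative: RVE6 in the interaction (−0.06 to 0.12), in med8 (−0.04 to 0.08) and in Col-0 (−0.08 to 0.02), and RVE7 in Col-0 (−0.10 to 0.01). For med8 against Col-0 on control medium, 4 of the 10 genes were called, against 7 with DESeq2 and 1 in the fit of only the groups compared. Leaving out 1 library gave 3 to 5 there, 7 to 8 in the interaction, 8 to 9 between genotypes on methyl viologen, 6 to 7 for methyl viologen in med8 and 8 for it in Col-0. Without both libraries that stood apart, 5 genes were called on control medium, 7 in the interaction, 9 between genotypes on methyl viologen, 7 in med8 and 8 in Col-0. The main fit called 5.79% of all tested loci on control medium, 13.9% in the interaction and 23.7% between genotypes on methyl viologen. For methyl viologen it called 43.1% in med8 and 28.8% in Col-0. With the replicate block, 6 genes were called in med8, LNK1 being lost (edgeR adjusted p = 0.0539), and no other call of the 10 genes changed. Over all loci, med8 against Col-0 on control medium gave 1200 calls, 1976 with DESeq2, 143 with only the groups compared, 1848 without both libraries that stood apart, and 402 (without Col-0 control replicate 3) to 1625 without 1 library. It gave 446 without Col-0 control replicate 2 and 631 without med8 control replicate 2. The interaction gave 2885 calls and 1874 to 3332 without 1 library, lowest without med8 methyl viologen replicate 2 and 1912 without Col-0 methyl viologen replicate 1. The genotypes on methyl viologen gave 4906 calls and 3211 (without med8 methyl viologen replicate 2) to 6390. Which direction held more calls also depended on scaling. Under upper-quartile scaling the interaction gave 1456 higher and 1276 lower loci, against 1296 and 1589 under TMM, and the genotypes on methyl viologen 2607 and 2290, against 2231 and 2675. Under RLE scaling it turned for methyl viologen in med8 (4239 and 4729, against 4528 and 4403) and for the genotypes on control medium (615 and 603, against 582 and 618). The cause of these changes was not tested. Among the 10 genes, depth limits RVE3 most, with 10 to 15 counts in each Col-0 control library.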

Other observations

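In med8 with methyl viologen the 10 genes summed to 224, 212 and 212 CPM in replicates 1, 2 and 3, and no replicate held the highest value of more than 4 genes. In Col-0 with methyl viologen they summed to 428, 387 and 325 CPM, replicate 1 held the highest value of 8 genes and replicate 3 the lowest of 9. An evening element lay in the 500 bases before 1 of these 10 genes (RVE7), 0 of the 5 further RVE and LNK genes and 2 of the 5 PRR genes (PRR5 and TOC1). It also lay before 3 of the 8 genes on the evening list (LUX, BOA and FKF1) and 1 of the 10 genes for activators, repressors and a kinase of CCA1 (COR27). Among the 13 clock outputs it lay before 4 (GRP7, GRP8, CBF1 and CBF2), and 4.4% of all promoters held it.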
